A study of Mus musculus with 24 samples.

Results

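The uterus was compared between 3 libraries labelled Kdm4a knockout and 3 wild-type libraries, which are 6 of the 24 libraries of the study. They were taken by tissue and genotype label and by no measured value. All came from C57BL6 females of 8 to 10 weeks, virgin until a timed mating with a stud male, whose whole uteri were dissected free of fat at 2.5 days post coitus. Labels give the mutants as KO without naming the allele, the deleted exons or the strain of origin, and give no treatment. The labels count 3 biological replicates for each tissue and do not say whether a library pooled females. Poly-A RNA was sequenced without strand information, and the deposited values are read counts per gene symbol.

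At this stage of mouse pregnancy the embryos have yet to implant, and the uterus passes between 2 hormones. Oestrogen, high around ovulation, drives division of the epithelium and the secretion of proteins such as lactoferrin. Progesterone from the new corpora lutea then stops epithelial division, changes what the glands and the lining secrete and readies the stroma for the decidual reaction. A whole uterus holds luminal and glandular epithelium, stroma, smooth muscle, vessels and leukocytes, so a lower value can mean fewer cells of a type or less RNA per cell, which cannot be told apart here. KDM4A is an enzyme that takes methyl groups off lysines of histone H3.

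The 6 libraries held 15941312 to 19548901 counts over 24195 symbols, so that 1 count was worth 0.0512 to 0.0627 CPM (counts scaled by TMM to a common library total). Kdm4a (chromosome 4, 118136957 to 118180043, mm10) measured 72.7, 74.3 and 80.7 CPM in KO-labelled uteri, against 113, 111 and 98.8 CPM in wild-type uteri, with log2 fold change -0.50, SE 0.12, adjusted p = 0.122 by edgeR. Its KO-labelled values lay below the wild-type ones and well above 0, and its adjusted p in the authors' deposited table was 0.0181. In 1 edgeR fit over all 24 libraries, the log2 fold change of Kdm4a was -0.50 in the uterus and -0.31 in the ovary. It was 0.02 in the pituitary and 0.40 in the hypothalamus, so Kdm4a was not lower under the KO label in every tissue. The uterine effect did not differ from the mean of the other tissues (adjusted p = 0.63 by edgeR). Counts summed over a gene cannot show the loss of part of it, so the mutants are called KO-labelled here. Of the 23 tested genes of the Kdm4 family and of lysine methylation on histone H3, with Cbx1, Cbx3 and Cbx5 among them, 0 passed the threshold. KO-labelled library 1 stood apart, with a score of -65.6 on principal component 1, which held 50.5% of the variance, while the other KO-labelled libraries lay at -4.57 and -6.19 and the wild-type libraries at 19.3 to 30.5. Its deviations from the mean also followed transcript length (rank correlation across symbols -0.402, against 0.0367 to 0.290 in the other 5). Medians of the gene lists are therefore also given without it.

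edgeR's quasi-likelihood test at a false discovery rate (FDR) of 0.05 called 52 of 14910 tested symbols (0.349%), of which 20 rose (0.134%) and 32 fell (0.215%) in KO-labelled uteri. In all 52 the 3 KO-labelled libraries lay on 1 side of the 3 wild-type libraries. Over all symbols tested, 9.46% had every KO-labelled library above every wild-type library and 10.1% had every one below, and 12.7% had an unadjusted p under 0.05. The number of calls turned on single wild-type libraries. Fits without wild-type library 1, 2 or 3 made 5, 0 and 2 calls. Fits without KO-labelled library 1, 2 or 3 made 128 (0.848% of those tested), 148 and 171, of which 47, 50 and 47 were among the 52. The 51 calls with an annotated position lay on 18 chromosomes, and the 3 on chromosome 4, which carries Kdm4a, were 0.334% of the symbols tested there.

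**Figure D1:**
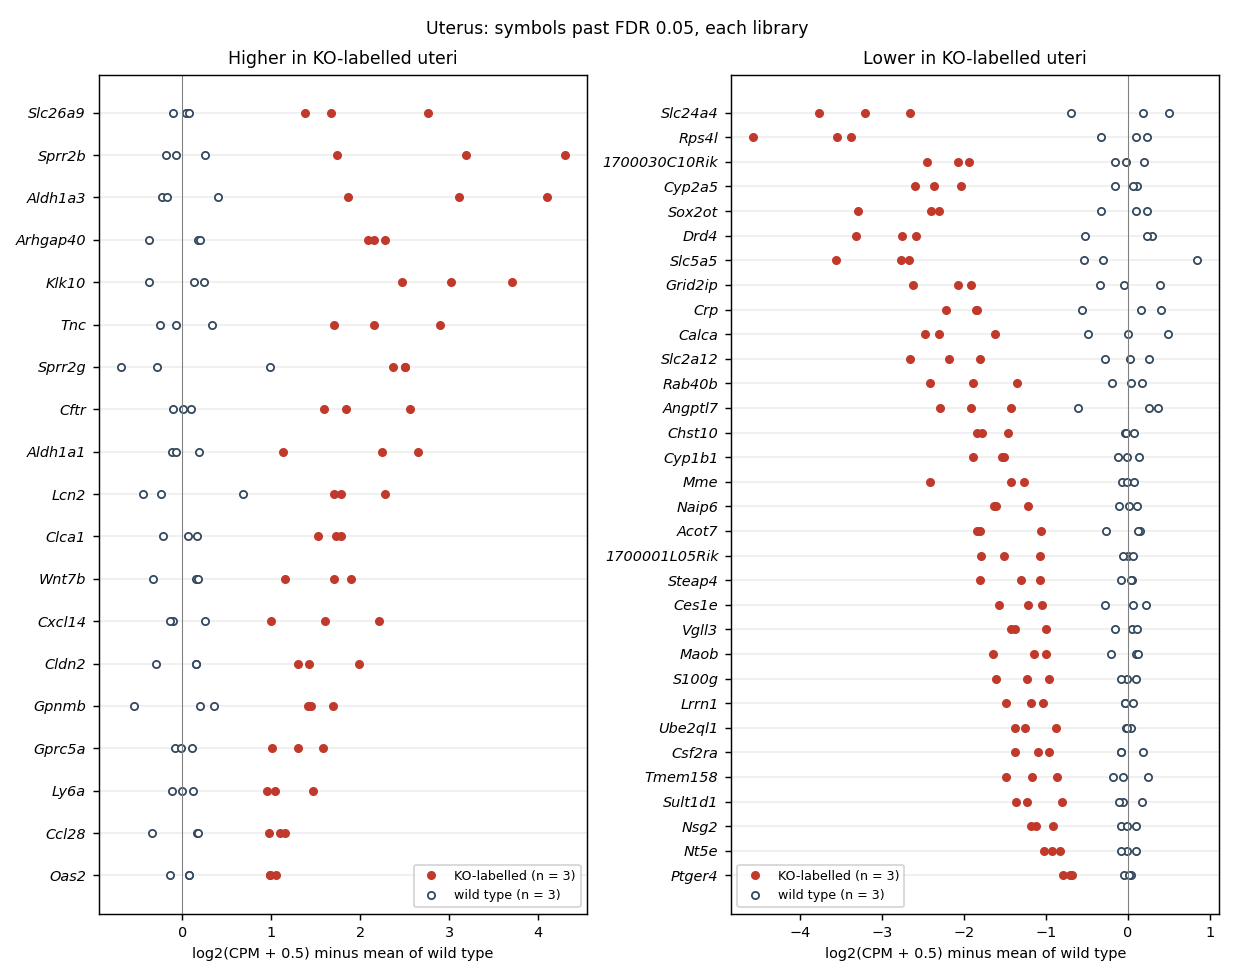
Each row is 1 of 51 of the 52 symbols past FDR 0.05 and each point 1 library, filled for KO-labelled and open for wild type. The horizontal axis is log2(CPM + 0.5) minus the mean of the wild-type libraries, and no row has a KO-labelled point among the wild-type points.

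The gene lists were chosen with earlier results of these data known, so the number of calls in a list rests in part on that choice. Among the lists of secreted genes, that of epithelial products known to be induced by oestrogen had the most calls. This list also holds products that are not secreted, and Sprr2b and Sprr2g, described below, are among its calls. Of 21 tested members 4 rose and 0 fell, 11 had all KO-labelled libraries above all wild-type libraries and 3 had them below. Their median log2 fold change was 1.38, against 0.01 over all symbols tested, and 1.05 without KO-labelled library 1. Clca1, a secreted regulator of chloride channels, measured 43, 35.9 and 41.3 CPM in KO-labelled uteri, against 13.6, 10.3 and 12.7 CPM in wild-type uteri (log2 fold change 1.72, SE 0.17, adjusted p = 0.00957). Its KO-labelled values stood close together and far above every wild-type value. Lcn2, the iron-trapping lipocalin, measured 55.9, 37.5 and 39.5 CPM in KO-labelled uteri, against 9.39, 8.09 and 18.2 CPM in wild-type uteri (log2 fold change 1.90, SE 0.31, adjusted p = 0.0447). Wild-type library 3 was the highest of its group for Lcn2 and still lay below all KO-labelled libraries.

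Other members of this group were higher in every KO-labelled library without passing. Ltf, which encodes lactoferrin and was the group's most abundant separated member, measured 1001, 597 and 744 CPM in KO-labelled uteri, against 222, 270.2 and 405 CPM in wild-type uteri (log2 fold change 1.38, SE 0.26, adjusted p = 0.0632). Muc1, the mucin of the luminal surface, measured 122, 112 and 131 CPM in KO-labelled uteri, against 72.1, 83.2 and 73 CPM in wild-type uteri (log2 fold change 0.68, SE 0.13, adjusted p = 0.0632). C3, the central complement protein, measured 434, 1590.1 and 1521 CPM in KO-labelled uteri, against 952, 1041 and 1276 CPM in wild-type uteri, and KO-labelled library 1 lay below the wild-type range while the other 2 lay above it. Areg, which encodes the growth factor amphiregulin and is also known to be induced by progesterone, ran the other way at 5.27, 10.5 and 11.7 CPM in KO-labelled uteri, against 28.2, 20 and 17 CPM in wild-type uteri (log2 fold change -1.25, SE 0.31, adjusted p = 0.13). Antimicrobial and defence proteins, a list that shares Lcn2 and Ltf, had 1 of 22 called, 6 above and 2 below. Of 25 complement genes 0 passed, 2 lay above and 0 below.

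**Figure D2:**
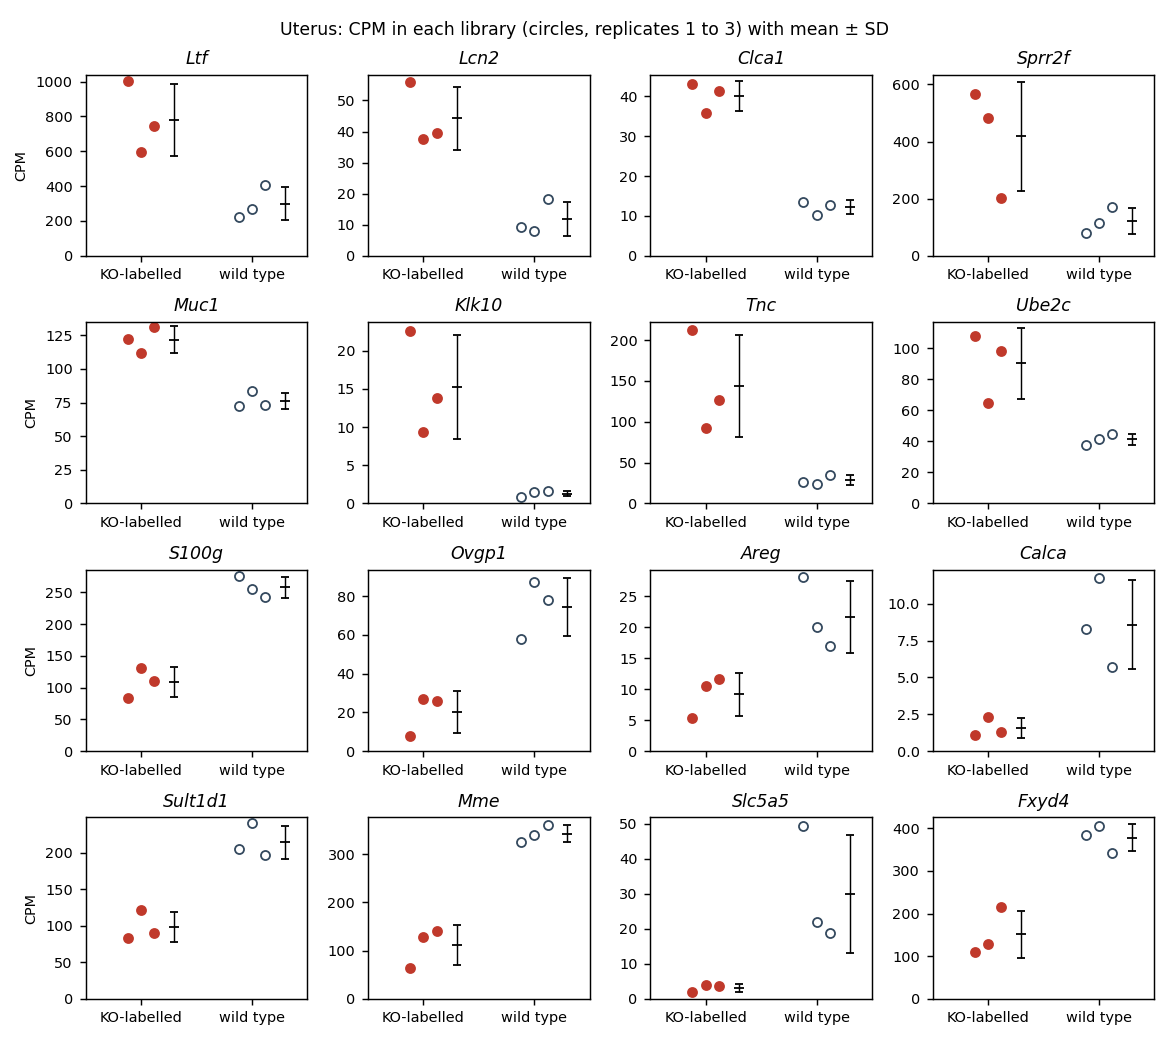
CPM in each uterine library (circles) with mean ± SD of 3 libraries per group for 16 symbols, KO-labelled filled and wild type open, on axes that start at 0. In the upper 8 panels every KO-labelled library is above every wild-type library, and in the lower 8 every one is below.

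The small proline-rich proteins of the Sprr2 family, which are cross-linked into the envelope of surface epithelia and are known in mouse uterus as oestrogen-induced products, lie side by side on chromosome 3. Sprr2b (chromosome 3, 92316620 to 92318085, mm10) measured 13, 5.77 and 1.8 CPM in KO-labelled uteri, against 0.108, 0.155 and 0.321 CPM in wild-type uteri (log2 fold change 5.14, SE 0.81, adjusted p = 0.0419), a fold change set by few wild-type counts. Sprr2g, annotated as a polymorphic pseudogene, measured 81.3, 81.6 and 74.1 CPM in KO-labelled uteri, against 8.47, 11.3 and 28.1 CPM in wild-type uteri (log2 fold change 2.31, SE 0.38, adjusted p = 0.0473). Both genes rose, and for both the groups were far apart. Sprr2d and Sprr2f, like Cryab, Esr1, Pgr and Lif further on, are named here after their values were seen. Sprr2d had 315, 163 and 25 counts in KO-labelled uteri, against 0, 0 and 3 in wild-type uteri (ratio of summed counts, scaled by the summed TMM-scaled depths, 155, 95% exact counting interval 52.7 to 754, adjusted p = 0.0539). Sprr2f, the most abundant of the family in this tissue, measured 568, 482 and 204 CPM in KO-labelled uteri, against 79.9, 116 and 169 CPM in wild-type uteri (log2 fold change 1.78, SE 0.38, adjusted p = 0.0881). KO-labelled library 3 was the lowest of its group for Sprr2b, Sprr2d and Sprr2f.

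The family members resemble each other, which bears on where reads are counted. Of the 50-base words in the longest Sprr2b transcript 14.1% also occur in transcripts of other counted genes, mostly Sprr2a1, which had 0 counts in every library. For Sprr2d the share was 4.27%, for Sprr2f 0.714% and for Sprr2g 0%. How reads that match more than 1 gene were counted is not given. A count of 0 for Sprr2a1 therefore does not show that its RNA was absent. The 250 bases before the start of 3 members are shown because these genes were higher together, and that of Aldh1a1, a called gene described with the metabolic enzymes, for comparison. They are RefSeq sequences of GRCm38.p6, plus strand, and capitals mark the AP-1 motif TGANTCA and the TATA box TATAAA. Their starts are those of RefSeq, and the one of Sprr2b lies inside the gene position given above. Aldh1a1 had 2 such promoters, of which the first listed was used.
Sprr2b, chr3:92316455-92316704: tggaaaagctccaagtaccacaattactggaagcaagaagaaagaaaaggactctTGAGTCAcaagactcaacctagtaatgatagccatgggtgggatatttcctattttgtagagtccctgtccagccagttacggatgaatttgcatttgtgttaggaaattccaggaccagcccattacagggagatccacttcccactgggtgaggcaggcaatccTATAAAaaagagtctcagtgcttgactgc
Sprr2d, chr3:92338890-92339139: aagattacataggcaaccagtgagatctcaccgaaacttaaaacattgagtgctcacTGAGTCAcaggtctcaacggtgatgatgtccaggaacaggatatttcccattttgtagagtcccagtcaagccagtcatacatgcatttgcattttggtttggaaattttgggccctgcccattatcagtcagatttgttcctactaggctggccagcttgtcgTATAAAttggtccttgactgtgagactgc
Sprr2f, chr3:92364937-92365186: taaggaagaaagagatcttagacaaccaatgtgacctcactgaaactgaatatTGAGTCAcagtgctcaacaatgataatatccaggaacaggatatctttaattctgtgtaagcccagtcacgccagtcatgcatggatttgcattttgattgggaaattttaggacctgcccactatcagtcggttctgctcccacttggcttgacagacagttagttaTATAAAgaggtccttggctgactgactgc
Aldh1a1, chr19:20492333-20492582: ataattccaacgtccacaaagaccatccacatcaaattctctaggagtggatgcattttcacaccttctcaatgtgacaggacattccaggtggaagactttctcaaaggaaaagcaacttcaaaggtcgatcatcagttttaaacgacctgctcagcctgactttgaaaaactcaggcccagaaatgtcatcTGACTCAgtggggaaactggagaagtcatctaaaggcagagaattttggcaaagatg
Aligned over their length, Sprr2b matched Sprr2d at 67.1% and Sprr2f at 66.9% of aligned bases, and Sprr2d matched Sprr2f at 77.6%. Members too low to be tested were as close or closer. Sprr2e, at most 0.852 CPM, matched Sprr2d at 90.3% and Sprr2f at 80.6%, and Sprr2i, at most 0.0498 CPM, matched Sprr2f at 79.8%. The likeness was therefore not particular to the members shown. In Sprr2b, Sprr2d and Sprr2f the TATA box starts at -29 and the motif TGANTCA at -195, -193 and -197 from the start. On either strand TGANTCA occurred in 6.87% of the 27025 promoters of the table and in 4.63% of the 11166 that belong to tested symbols. It occurred in 3 of the 12 matched promoters of genes that rose (Arhgap40, Sprr2b, Aldh1a1) and in 1 of the 28 of genes that fell (Crp). TATAAA occurred in 13.0% of all promoters and 6.70% of those tested, in 4 of the 12 and in 3 of the 28. The palindrome GNACANNNTGTNC, bound by progesterone and glucocorticoid receptors, occurred in 0 of these 40 promoters, in 0.322% of those tested and in 0.381% of all. The palindrome GGTCANNNTGACC, bound by oestrogen receptors, occurred in 0 of the 11166 promoters of tested symbols, so a count over the 40 tells nothing further.

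Envelope proteins and keratins of stratified epithelia, a list that shares the Sprr genes, had 3 of 27 tested members called higher, 14 with all KO-labelled libraries above wild type and 0 below (median 1.39, and 1.01 without KO-labelled library 1). The third called member, Klk10, a secreted kallikrein-related serine protease, measured 22.6, 9.31 and 13.9 CPM in KO-labelled uteri, against 0.863, 1.44 and 1.6 CPM in wild-type uteri (log2 fold change 3.55, SE 0.39, adjusted p = 0.0165). Its neighbour on chromosome 7, Klk11, measured 9.53, 7.32 and 8.09 CPM in KO-labelled uteri, against 2.27, 0.412 and 1.15 CPM in wild-type uteri (log2 fold change 2.70, SE 0.48, adjusted p = 0.0605). Most other members of this list were at or near 0 in all libraries, and the keratin of stratified basal cells Krt5 had at most 0.320 CPM in any library.

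Proteases and their inhibitors did not move as a class. Of 28 secreted serine proteases 1 rose, and groups separated upward for 5 and downward for 5. Of 38 metalloproteases and 48 protease inhibitors 0 passed. The uncalled metalloprotease Mmp7, known from glandular epithelium, measured 28.2, 4.53 and 6.51 CPM in KO-labelled uteri, against 0.108, 0.258 and 1.35 CPM in wild-type uteri (log2 fold change 4.58, SE 0.92, adjusted p = 0.0753), with KO-labelled library 1 far above the rest. A2m, a broad protease inhibitor, measured 196, 116 and 90.01 CPM in KO-labelled uteri, against 33.6, 56.9 and 39.1 CPM in wild-type uteri (log2 fold change 1.63, SE 0.30, adjusted p = 0.0615). Serpina1e, an antitrypsin of the mouse, ran the other way at 72.6, 115 and 199 CPM in KO-labelled uteri, against 274, 438 and 428 CPM in wild-type uteri (log2 fold change -1.56, SE 0.34, adjusted p = 0.0903). Mucins showed both directions as well. Of 12 tested members 0 passed, 3 lay above and 1 below. Beside Muc1, Muc4 measured 16.4, 12.3 and 26.7 CPM in KO-labelled uteri, against 4.42, 4.17 and 7.7 CPM in wild-type uteri (log2 fold change 1.77, SE 0.34, adjusted p = 0.0674), whereas Ovgp1, the oviductal glycoprotein, measured 7.56, 27 and 25.8 CPM in KO-labelled uteri, against 57.8, 87.5 and 77.8 CPM in wild-type uteri (log2 fold change -1.89, SE 0.40, adjusted p = 0.0862).

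Signalling ligands gave single calls. Wnt7b was the 1 called gene of 45 Wnt, TGF-beta and BMP ligands and antagonists, and 12 of them (26.7%) had all KO-labelled libraries above wild type and 1 below (median 0.32, 0.29 without KO-labelled library 1). Wnt7b, a ligand of epithelia, measured 16.5, 9.66 and 14.4 CPM in KO-labelled uteri, against 3.13, 4.59 and 4.68 CPM in wild-type uteri (log2 fold change 1.71, SE 0.27, adjusted p = 0.0419). Wnt4, which is needed in the stroma for decidual change, measured 78.1, 20.4 and 25.2 CPM in KO-labelled uteri, against 7.71, 6.91 and 8.59 CPM in wild-type uteri (log2 fold change 2.41, SE 0.47, adjusted p = 0.0689), and KO-labelled library 1 was highest by far. The stress-induced ligand Gdf15 measured 33, 10.2 and 3.07 CPM in KO-labelled uteri, against 0.432, 0.722 and 1.22 CPM in wild-type uteri (log2 fold change 4.30, SE 0.83, adjusted p = 0.0689). Fst, which encodes the activin trap follistatin, was the 1 member below, at 18.2, 40.6 and 28 CPM in KO-labelled uteri, against 78.1, 67.8 and 50.6 CPM in wild-type uteri (log2 fold change -1.18, SE 0.28, adjusted p = 0.115).

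Of 38 EGF, IGF and FGF family members and 27 cytokines 0 passed. The EGF-like ligand Nrg4 measured 6.92, 7.17 and 10.5 CPM in KO-labelled uteri, against 17.4, 19.2 and 14 CPM in wild-type uteri (log2 fold change -1.04, SE 0.22, adjusted p = 0.0896). Ctf1, cardiotrophin of the interleukin-6 family, measured 10.6, 9.26 and 15.2 CPM in KO-labelled uteri, against 23.3, 26.2 and 20.6 CPM in wild-type uteri (log2 fold change -1.0, SE 0.21, adjusted p = 0.0894). Lif, the cytokine that the uterus needs for implantation, measured 4.42, 6.37 and 3.12 CPM in KO-labelled uteri, against 5.02, 2.32 and 3.14 CPM in wild-type uteri, and its groups overlapped. Of 27 chemokines 2 rose. Cxcl14 measured 183, 78.4 and 120.3 CPM in KO-labelled uteri, against 36.2, 46.7 and 35.5 CPM in wild-type uteri (log2 fold change 1.69, SE 0.28, adjusted p = 0.0482), and Ccl28, a chemokine of mucosal epithelia that draws plasma cells, measured 43.9, 38.7 and 42.3 CPM in KO-labelled uteri, against 15.3, 21.9 and 22 CPM in wild-type uteri (log2 fold change 1.08, SE 0.17, adjusted p = 0.0447). The 3 KO-labelled values of Ccl28 were within a narrow range above all wild-type values.

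General genes of simple epithelium did not separate the groups. Of 50 tested members, such as keratins, cadherins and tight junction proteins, 1 rose, 3 lay above and 3 below, shares under those over all symbols, and their median was -0.06 (-0.01 without KO-labelled library 1). Luminal markers moved both ways, with 2 of 22 called higher, Arhgap40 among them, 1 lower (Sult1d1), 7 above and 4 below. Arhgap40 encodes a GTPase-activating protein and measured 2.98, 2.69 and 2.54 CPM in KO-labelled uteri, against 0.0539, 0.309 and 0.321 CPM in wild-type uteri (log2 fold change 3.56, SE 0.51, adjusted p = 0.038). Glandular markers had 1 of 19 called, 4 above and 4 below. Claudin genes outside the lists included Cldn2, a pore-forming tight junction protein, which rose at 23.2, 15.6 and 14.3 CPM in KO-labelled uteri, against 6.15, 6.13 and 4.36 CPM in wild-type uteri (log2 fold change 1.67, SE 0.25, adjusted p = 0.0383).

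Ion and water transport gave 5 calls among 36 members, 3 higher and 2 lower, beside 0.349% of all symbols tested. Besides Clca1, Cftr, the chloride channel of secretory epithelium, measured 9.53, 7.96 and 16 CPM in KO-labelled uteri, against 2.1, 2.32 and 2.5 CPM in wild-type uteri (log2 fold change 2.27, SE 0.31, adjusted p = 0.0324). Slc26a9, another chloride transporter of epithelia, had 59, 18 and 23 counts in KO-labelled uteri, against 0, 1 and 1 in wild-type uteri (ratio of summed counts, scaled by the summed TMM-scaled depths, 46.2, 95% exact counting interval 12.5 to 387, adjusted p = 0.0482). The 2 that fell transport other ions. Slc5a5, the sodium-iodide symporter, measured 1.86, 3.88 and 3.6 CPM in KO-labelled uteri, against 49.5, 22 and 18.7 CPM in wild-type uteri (log2 fold change -3.27, SE 0.42, adjusted p = 0.0324), and Slc24a4, a sodium-calcium exchanger, measured 0.0533, 0.697 and 0.317 CPM in KO-labelled uteri, against 10.2, 8.09 and 4.17 CPM in wild-type uteri (log2 fold change -4.35, SE 0.61, adjusted p = 0.0336). Wild-type library 1 had more than 2 times the Slc5a5 level of the other wild-type libraries. Fxyd4, a regulator of the sodium pump, measured 109, 129 and 215 CPM in KO-labelled uteri, against 385, 405 and 343 CPM in wild-type uteri (log2 fold change -1.32, SE 0.24, adjusted p = 0.0605).

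Genes known to be induced by progesterone leaned down. Of 40 tested 2 fell and 0 rose, 17 (42.5%) had all KO-labelled libraries below wild type and 3 above, and their median was -0.34 (-0.25 without KO-labelled library 1). Calca, the gene of the hormone calcitonin, measured 1.07, 2.34 and 1.27 CPM in KO-labelled uteri, against 8.25, 11.8 and 5.71 CPM in wild-type uteri (log2 fold change -2.45, SE 0.39, adjusted p = 0.0419). Sult1d1, a cytosolic sulfotransferase, measured 82.5, 122 and 90.3 CPM in KO-labelled uteri, against 205, 239.8 and 197 CPM in wild-type uteri (log2 fold change -1.12, SE 0.17, adjusted p = 0.0383). For both genes the KO-labelled libraries lay far below the wild-type ones. Hdc, the enzyme that makes histamine, measured 317, 429.9 and 773 CPM in KO-labelled uteri, against 1029.9, 1247 and 1169 CPM in wild-type uteri (log2 fold change -1.18, SE 0.29, adjusted p = 0.13), with its highest KO-labelled value in library 3. Members above wild type were Wnt4, Muc20 and Cryab, so the list holds genes that ran against the rest. Muc20, a surface mucin, measured 9.96, 5.43 and 9.57 CPM in KO-labelled uteri, against 2.43, 2.94 and 3.21 CPM in wild-type uteri (log2 fold change 1.54, SE 0.30, adjusted p = 0.0681).

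The receptors themselves did not pass. Pgr, the progesterone receptor, measured 124, 106 and 152 CPM in KO-labelled uteri, against 106, 108 and 104 CPM in wild-type uteri, and Esr1, the oestrogen receptor alpha, measured 252, 322 and 272 CPM in KO-labelled uteri, against 368, 315 and 308 CPM in wild-type uteri, with overlapping groups for both. Of 23 receptors and co-regulators 5 lay below and 1 above, and 0 passed. The membrane oestrogen receptor gene Gper1 measured 3.46, 3.98 and 8.78 CPM in KO-labelled uteri, against 15.6, 16.6 and 12.2 CPM in wild-type uteri (log2 fold change -1.46, SE 0.34, adjusted p = 0.118).

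Enzymes of steroid and retinoid metabolism gave 5 calls among 36, beside 0.349% of all symbols tested. The 2 that rose both make retinoic acid from retinaldehyde. Aldh1a1 measured 259, 90.1 and 196 CPM in KO-labelled uteri, against 37.7, 38.9 and 46.7 CPM in wild-type uteri (log2 fold change 2.14, SE 0.33, adjusted p = 0.0383), and Aldh1a3 measured 17.8, 3.39 and 8.73 CPM in KO-labelled uteri, against 0.917, 0.412 and 0.449 CPM in wild-type uteri (log2 fold change 4.05, SE 0.64, adjusted p = 0.0419). KO-labelled library 2 was the lowest of its group for both, and still above all wild-type libraries. The 3 that fell were Sult1d1, Cyp1b1 and Cyp2a5. Cyp1b1, a cytochrome that hydroxylates oestradiol, measured 11, 14.2 and 14.5 CPM in KO-labelled uteri, against 38.8, 46.6 and 42.1 CPM in wild-type uteri (log2 fold change -1.68, SE 0.17, adjusted p = 0.00957). Cyp2a5 measured 0.107, 0.398 and 0.212 CPM in KO-labelled uteri, against 3.45, 2.78 and 3.34 CPM in wild-type uteri (log2 fold change -3.69, SE 0.47, adjusted p = 0.0303), and 31.0% of the 50-base words of its longest transcript are shared with Cyp2a4, which had 0 counts in every library. As with Sprr2a1, that 0 does not show that Cyp2a4 RNA was absent.

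S phase and mitosis genes were higher nearly throughout, without single calls in the main edgeR fit. Of 40 tested 0 passed, 33 (82.5%) had all KO-labelled libraries above wild type, 0 lay below and 39 had a positive fold change (median 0.74, 0.68 without KO-labelled library 1). Ube2c, a ubiquitin-conjugating enzyme of mitosis, measured 108, 64.4 and 97.9 CPM in KO-labelled uteri, against 37.9, 41.6 and 45 CPM in wild-type uteri (log2 fold change 1.12, SE 0.19, adjusted p = 0.0554). Cenpe, a kinetochore motor, measured 15.1, 11.3 and 15.9 CPM in KO-labelled uteri, against 6.85, 5.36 and 6.48 CPM in wild-type uteri (log2 fold change 1.18, SE 0.21, adjusted p = 0.0615), and the mitotic kinase Plk1 41.7, 33.6 and 51.5 CPM in KO-labelled uteri, against 21.7, 22.2 and 18.2 CPM in wild-type uteri (log2 fold change 1.03, SE 0.18, adjusted p = 0.0615). In each, KO-labelled library 2 was the lowest of its group. In the authors' deposited DESeq2 table the adjusted p was 3.13e-05 for Ube2c, 0.00015 for Cenpe and 0.000128 for Plk1. The edgeR fit without KO-labelled library 1 called 3 genes of this list higher. The most abundant member, Hmgb2, a chromatin protein, measured 196, 108 and 149 CPM in KO-labelled uteri, against 95.2, 90.7 and 109 CPM in wild-type uteri, with KO-labelled library 2 within the wild-type range.

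**Figure D3:**
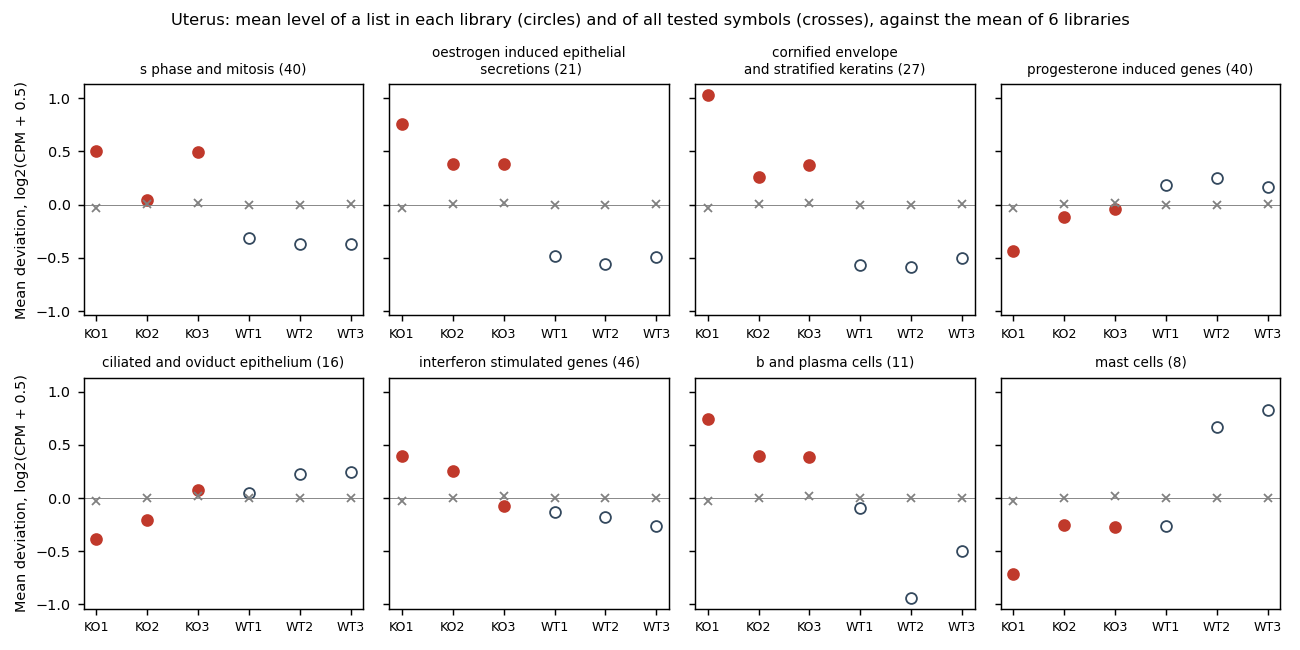
Mean over the tested members of a list (number in brackets) of log2(CPM + 0.5) in each library minus the mean of the 6 libraries, with all tested symbols as crosses. KO-labelled libraries are on the left, and KO-labelled library 1 is the KO-labelled library farthest from the wild-type circles in all 8 panels, by a small margin in S phase and mitosis.

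The lists of stromal and matrix genes gave 5 calls without a common direction, and whole-uterus RNA does not show which cells they came from. Among 39 fibroblast genes 1 rose and 2 fell. Ly6a, the stem cell antigen Sca-1, measured 300.5, 211 and 224 CPM in KO-labelled uteri, against 108, 100.2 and 118 CPM in wild-type uteri (log2 fold change 1.17, SE 0.16, adjusted p = 0.0332). Angptl7, a secreted angiopoietin-like protein, measured 38.5, 70.9 and 50.2 CPM in KO-labelled uteri, against 227, 245 and 125 CPM in wild-type uteri (log2 fold change -1.90, SE 0.29, adjusted p = 0.0383), and Nt5e, the ectonucleotidase that makes adenosine, 13.5, 14.5 and 12.6 CPM in KO-labelled uteri, against 26, 24.6 and 28.1 CPM in wild-type uteri (log2 fold change -0.95, SE 0.15, adjusted p = 0.0419). Of 46 matricellular and elastic fibre proteins 1 rose. This was Tnc, tenascin C, a matrix glycoprotein of remodelling tissue, at 212, 92.4 and 127 CPM in KO-labelled uteri, against 26.6, 23.4 and 35.3 CPM in wild-type uteri (log2 fold change 2.34, SE 0.30, adjusted p = 0.0303). Of 33 tested genes on the proteoglycan list, which also holds glycan sulfotransferases, 1 fell. This was Chst10, a sulfotransferase that caps glycans and is not itself a proteoglycan. It measured 8.63, 8.26 and 10.8 CPM in KO-labelled uteri, against 29.99, 32.4 and 30.3 CPM in wild-type uteri (log2 fold change -1.74, SE 0.17, adjusted p = 0.00957).

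Among 40 collagens 0 passed, 7 lay above and 5 below. The abundant fibrillar collagen Col3a1 measured 5393, 6624 and 6084 CPM in KO-labelled uteri, against 4889, 4974 and 7232 CPM in wild-type uteri, and its groups overlapped. Col7a1, the anchoring fibril collagen under epithelia, measured 358, 181 and 215 CPM in KO-labelled uteri, against 73.7, 105 and 118 CPM in wild-type uteri (log2 fold change 1.34, SE 0.27, adjusted p = 0.0748). Of 25 laminin and basement membrane genes 5 lay above, 2 below and 0 passed. Lamb3, a chain of epithelial laminin, measured 31.7, 16.5 and 19.8 CPM in KO-labelled uteri, against 5.12, 9.12 and 8.08 CPM in wild-type uteri (log2 fold change 1.61, SE 0.30, adjusted p = 0.0632). Smooth muscle had 0 of 25 called, 0 above and 1 below, and Acta2 measured 2934, 5601 and 3758 CPM in KO-labelled uteri, against 4182, 4352 and 5317 CPM in wild-type uteri. Of 24 decidual and implantation genes 0 passed, 6 lay above and 2 below. Ptgs2, the inducible prostaglandin synthase, measured 8.84, 12.8 and 17.3 CPM in KO-labelled uteri, against 4.37, 4.43 and 6.48 CPM in wild-type uteri (log2 fold change 1.35, SE 0.29, adjusted p = 0.0894), and Hbegf, an EGF-like ligand, 22.5, 17.6 and 21 CPM in KO-labelled uteri, against 13.8, 13.3 and 13.3 CPM in wild-type uteri (log2 fold change 0.60, SE 0.16, adjusted p = 0.164).

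The lists of leukocyte, MHC and interferon genes gave 1 call, an interferon-stimulated gene, apart from the chemokines and Lcn2 above. Called genes of immune function that are in no list were not counted here. Among them Csf2ra, Naip6 and Crp fell and Gpnmb rose. Oas2, a sensor of double-stranded RNA, measured 39.4, 39.4 and 41.4 CPM in KO-labelled uteri, against 17.7, 20.7 and 20.7 CPM in wild-type uteri (log2 fold change 1.02, SE 0.14, adjusted p = 0.0324). Of 46 interferon-stimulated genes 15 (32.6%) had all KO-labelled libraries above and 4 below (median 0.42, 0.31 without KO-labelled library 1). Its relative Oas3 measured 12.6, 11 and 8.89 CPM in KO-labelled uteri, against 4.42, 2.94 and 1.6 CPM in wild-type uteri (log2 fold change 1.85, SE 0.34, adjusted p = 0.0632), and Isg20, an exonuclease of the same response, ran the other way at 28.3, 36.3 and 36.3 CPM in KO-labelled uteri, against 45.2, 68.5 and 58.9 CPM in wild-type uteri (log2 fold change -0.77, SE 0.18, adjusted p = 0.118). Of 19 MHC class 1 and immunoproteasome genes 0 passed and 6 lay above and 1 below, with H2-Q4 at 177, 146 and 155 CPM in KO-labelled uteri, against 106, 107 and 111 CPM in wild-type uteri (log2 fold change 0.56, SE 0.12, adjusted p = 0.0969). The light chain B2m measured 2001, 2199.7 and 2325 CPM in KO-labelled uteri, against 2028, 1879.8 and 2590.3 CPM in wild-type uteri and overlapped.

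Leukocyte markers as a whole did not separate the groups. Of 17 general leukocyte genes 2 lay above and 0 below, with a summed level of 751 to 839 CPM in KO-labelled uteri, against 608 to 839 CPM in wild-type uteri. Macrophage genes had 2 of 24 above and 1 below. Dendritic cell and MHC class 2 genes had 1 of 22 above, and T and NK cell genes 4 of 30 above and 3 below. The edgeR test called 0 genes of these 4 lists. Of 3 tested eosinophil genes 1 lay below and 1 above, and 0 passed. Alox15, a lipoxygenase and the most abundant of them, is also on the list of progesterone-induced genes. It measured 91.5, 136 and 106 CPM in KO-labelled uteri, against 139, 255 and 204 CPM in wild-type uteri (log2 fold change -0.84, SE 0.23, adjusted p = 0.169). Prg2, a granule protein, measured 2.29, 0.946 and 0.635 CPM in KO-labelled uteri, against 0.593, 0.206 and 0.257 CPM in wild-type uteri (log2 fold change 1.84, SE 0.64, adjusted p = 0.27).

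Plasma cell genes stood higher. Of 11 tested B and plasma cell genes 0 passed and 7 lay above (median 1.40, 0.89 without KO-labelled library 1). Igj, the joining chain of secreted antibodies, measured 443, 147 and 188 CPM in KO-labelled uteri, against 136, 7.16 and 29.5 CPM in wild-type uteri (log2 fold change 2.17, SE 0.96, adjusted p = 0.413), and wild-type library 1 lay close to KO-labelled library 2. Mzb1, which helps antibody assembly, measured 9.27, 7.67 and 6.03 CPM in KO-labelled uteri, against 3.94, 1.24 and 1.35 CPM in wild-type uteri (log2 fold change 1.81, SE 0.44, adjusted p = 0.124). The receptor that carries such antibodies across epithelium, Pigr, measured 101, 71.5 and 81.6 CPM in KO-labelled uteri, against 42.9, 51.4 and 52 CPM in wild-type uteri (log2 fold change 0.80, SE 0.16, adjusted p = 0.0748).

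Mast cell genes did not separate the groups as a list. Of 8 tested 0 passed, 2 lay below and 0 above (median -1.19, -0.96 without KO-labelled library 1), and the 2 below were Cpa3 and Hdc, which is also on the list of progesterone-induced genes. The mean level of the list, as log2(CPM + 0.5) against the mean of the 6 libraries, was -0.71, -0.25 and -0.27 in KO-labelled uteri, against -0.26, 0.67 and 0.82 in wild-type uteri, so that wild-type library 1 was level with KO-labelled libraries 2 and 3. Cpa3, a mast cell carboxypeptidase, measured 2.24, 2.69 and 3.38 CPM in KO-labelled uteri, against 4.42, 10.5 and 16.2 CPM in wild-type uteri (log2 fold change -1.90, SE 0.43, adjusted p = 0.109). The protease gene Mcpt4 measured 4.26, 6.37 and 5.55 CPM in KO-labelled uteri, against 5.39, 15.6 and 21.8 CPM in wild-type uteri, with wild-type library 1 again level with the KO-labelled libraries. Neutrophil genes had 4 of 9 above and 0 below (median 1.38, 1.16 without KO-labelled library 1), and the list includes Ltf, which uterine epithelium also makes. The granule genes Elane and Ngp and the chemokine receptor gene Cxcr1 were at 0 in all 6 libraries, and the granule gene Mpo was at 0.16 to 0.962 CPM. S100a8, a calcium-binding protein of neutrophils, measured 5.59, 4.23 and 3.33 CPM in KO-labelled uteri, against 0.809, 0.361 and 1.48 CPM in wild-type uteri (log2 fold change 2.33, SE 0.47, adjusted p = 0.0766).

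**Figure D4:**
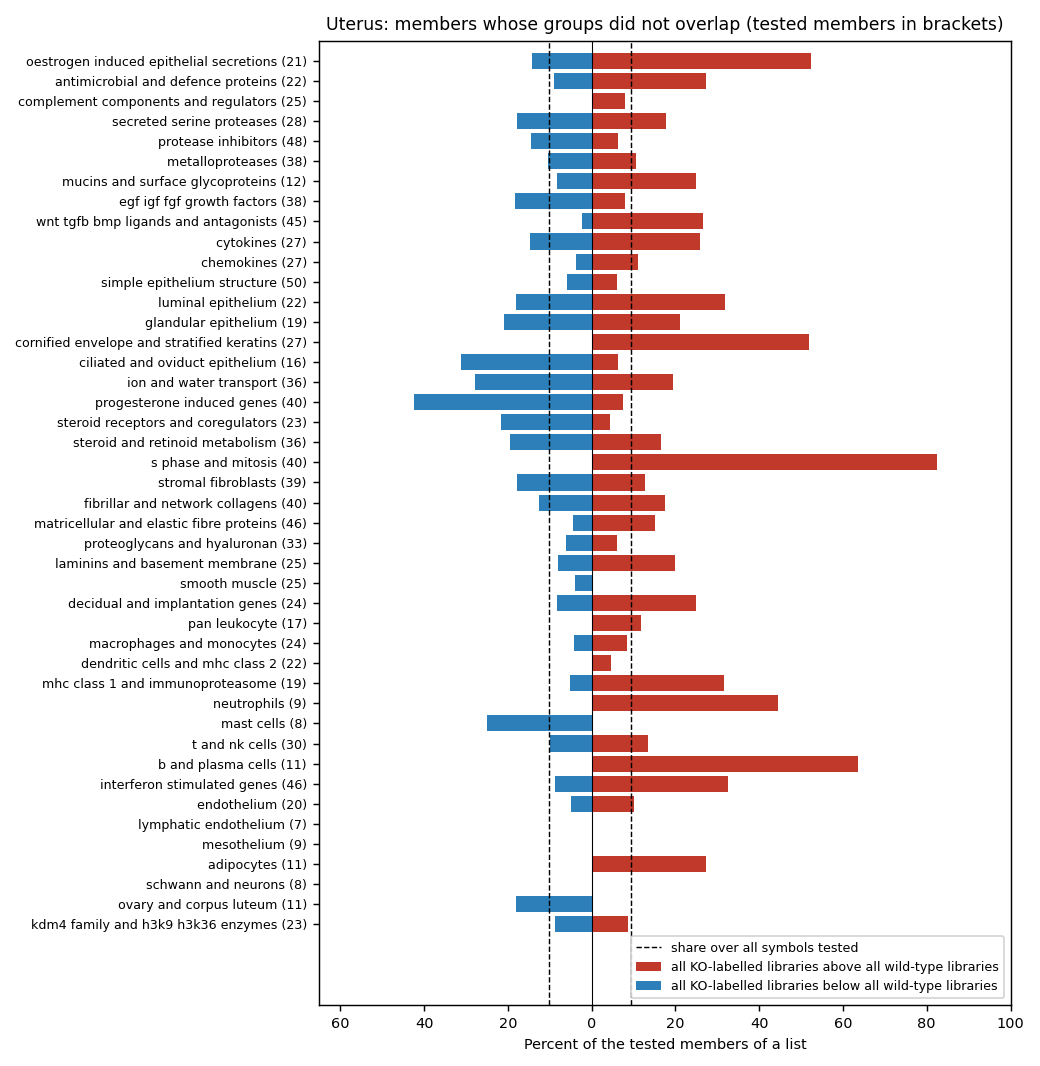
For each list with at least 7 tested members, the percent whose 3 KO-labelled libraries all lay above (right) or all below (left) the 3 wild-type libraries. Dashed lines give the shares over all symbols tested, 9.46% above and 10.1% below, and S phase and mitosis reaches 82.5% above while progesterone-induced genes reach 42.5% below.

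Genes of neighbouring tissues gave 0 calls. Of 16 ciliated and oviduct genes 5 lay below and 1 above, with a summed level of 311 to 372 CPM in KO-labelled uteri, against 411 to 441 CPM in wild-type uteri. Without the secretory gene Ovgp1, an alternative chosen after seeing the data, the sum was 300.5 to 344 CPM in KO-labelled uteri, against 350.1 to 355 CPM in wild-type uteri. The 1 above was Foxj1, the master regulator of motile cilia, at 2.72, 1.84 and 2.33 CPM in KO-labelled uteri, against 0.863, 1.44 and 0.834 CPM in wild-type uteri (log2 fold change 1.12, SE 0.37, adjusted p = 0.246). Of 11 ovarian genes 7 had a positive fold change (median 0.03, 0.01 without KO-labelled library 1), 0 lay above and 2 below. Those below were the steroid enzymes Cyp11a1 at 1.6, 0.249 and 0.846 CPM in KO-labelled uteri, against 6.37, 3.56 and 7.06 CPM in wild-type uteri (log2 fold change -2.65, SE 0.55, adjusted p = 0.0812) and Hsd3b1 at 1.86, 0.498 and 3.01 CPM in KO-labelled uteri, against 7.71, 4.59 and 26.6 CPM in wild-type uteri (log2 fold change -2.85, SE 0.73, adjusted p = 0.143). The oocyte gene Gdf9 measured 11.1, 2.39 and 1.38 CPM in KO-labelled uteri, against 1.56, 1.8 and 1.22 CPM in wild-type uteri (log2 fold change 1.68, SE 0.69, adjusted p = 0.356), with KO-labelled library 1 far above the rest, and Zp3, an egg coat protein too low to be tested, was at 3.62 CPM in that library and at 0 to 0.258 CPM in the other 5. Adipocyte genes had 3 of 11 above and 0 below, among them Cfd, the adipocyte protease adipsin, at 1.76, 13.3 and 11.4 CPM in KO-labelled uteri, against 1.29, 1.24 and 0.77 CPM in wild-type uteri (log2 fold change 2.99, SE 0.66, adjusted p = 0.0969). Among adipocyte genes too low to be tested, Adipoq was at 2.54 and 2.43 CPM and Cidec at 2.64 and 1.22 CPM in KO-labelled libraries 2 and 3. Both were at most 0.361 CPM in the remaining libraries, including KO-labelled library 1. Cidea stayed at 0.0498 to 0.373 CPM and Ucp1 at 0 in all libraries. Endothelial genes had 2 of 20 above and 1 below, and lymphatic, mesothelial and nerve genes 0. Of 10 embryo genes 2 were tested. Tfap2c lay above at 3.89, 2.49 and 2.86 CPM in KO-labelled uteri, against 1.73, 0.979 and 1.48 CPM in wild-type uteri (log2 fold change 1.14, SE 0.35, adjusted p = 0.214), and Eomes, which leukocytes also express, overlapped at 5.54, 4.83 and 7.62 CPM in KO-labelled uteri, against 9.33, 7.16 and 12.3 CPM in wild-type uteri. Nanog, Cdx2 and Pou5f1 were at 0 to 0.479 CPM in all libraries. Dppa3 was at 2.29 CPM in KO-labelled library 1 and at 0.0641 to 0.448 CPM in the other 5. Globin genes were at 0, whereas the erythrocyte gene Alas2 was at 2.59 to 7.87 CPM, so the globin zeros alone do not show that blood was absent. The part of such tissue in the other results was not tested.

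Of the 52 called genes 26 belonged to no list. S100g, the calcium-binding protein calbindin D9k of uterine and intestinal epithelium, measured 83.8, 131 and 109.6 CPM in KO-labelled uteri, against 276, 255 and 243 CPM in wild-type uteri (log2 fold change -1.25, SE 0.17, adjusted p = 0.0325). Mme, the membrane peptidase neprilysin, measured 64, 128 and 142 CPM in KO-labelled uteri, against 327, 340.3 and 362 CPM in wild-type uteri (log2 fold change -1.63, SE 0.26, adjusted p = 0.0419). Maob, an amine oxidase, measured 118, 186 and 168 CPM in KO-labelled uteri, against 398, 405 and 323 CPM in wild-type uteri (log2 fold change -1.25, SE 0.19, adjusted p = 0.0383), and Steap4, a metalloreductase, 30.6, 51.3 and 43.6 CPM in KO-labelled uteri, against 102, 112 and 111 CPM in wild-type uteri (log2 fold change -1.37, SE 0.18, adjusted p = 0.0324). All 4 fell, and in all 4 KO-labelled library 1 had the lowest value.

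Slc2a12, a glucose transporter, measured 17.9, 32.9 and 25.2 CPM in KO-labelled uteri, against 95.2, 138 and 118 CPM in wild-type uteri (log2 fold change -2.21, SE 0.23, adjusted p = 0.013). Acot7, a thioesterase of long-chain acyl-CoA, measured 248, 255 and 427 CPM in KO-labelled uteri, against 988, 967 and 743 CPM in wild-type uteri (log2 fold change -1.54, SE 0.23, adjusted p = 0.0383). Ptger4, a receptor of prostaglandin E, measured 66.7, 61.5 and 65.4 CPM in KO-labelled uteri, against 104, 110.3 and 108 CPM in wild-type uteri (log2 fold change -0.73, SE 0.11, adjusted p = 0.0407), the smallest fold change among the 52. Csf2ra, the receptor of the growth factor GM-CSF, measured 11.9, 14.6 and 16.1 CPM in KO-labelled uteri, against 29.8, 36.1 and 29.9 CPM in wild-type uteri (log2 fold change -1.17, SE 0.17, adjusted p = 0.0383). Drd4, a dopamine receptor, had the values 0.746, 0.348 and 0.899 CPM in KO-labelled uteri, against 9.82, 9.38 and 5.39 CPM in wild-type uteri (log2 fold change -3.62, SE 0.41, adjusted p = 0.0165). These 5 fell. Rps4l, annotated as a transcribed processed pseudogene, measured 1.54, 0.398 and 1.32 CPM in KO-labelled uteri, against 24.5, 22.4 and 16.5 CPM in wild-type uteri (log2 fold change -4.28, SE 0.40, adjusted p = 0.00957). Naip6, a sensor of bacterial proteins, measured 3.35, 4.63 and 3.44 CPM in KO-labelled uteri, against 10.6, 11.5 and 12.4 CPM in wild-type uteri (log2 fold change -1.59, SE 0.22, adjusted p = 0.0333), and 20.8% of the 50-base words of its longest transcript are shared with other counted genes, mostly Naip5. Both fell. Of the listless genes that rose, Gpnmb, a transmembrane glycoprotein of phagocytes, measured 42.4, 41.6 and 50.7 CPM in KO-labelled uteri, against 17.5, 10.3 and 19.7 CPM in wild-type uteri (log2 fold change 1.51, SE 0.23, adjusted p = 0.0407), and Gprc5a, an orphan receptor of epithelia, 20.9, 13.9 and 17.2 CPM in KO-labelled uteri, against 6.26, 7.22 and 6.61 CPM in wild-type uteri (log2 fold change 1.37, SE 0.21, adjusted p = 0.0383).

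The uterine effect was set against the mean effect of the other 3 tissues, ovary, pituitary and hypothalamus, in 1 edgeR fit over all 24 libraries. Of 16971 symbols 14 were called (0.0825%), 9 with a higher and 5 with a lower effect in the uterus, and 8 of the 14 were among the 52. For Slc5a5 the log2 fold change was -3.26 in the uterus, against 2.22 in the ovary, 0.97 in the pituitary and 1.18 in the hypothalamus (difference -4.72, SE 0.54, adjusted p = 0.000233). Tnc had 2.34 in the uterus, against -0.53, 0.50 and 0.07 (difference 2.33, SE 0.43, adjusted p = 0.0279). Chst10 had -1.74 in the uterus, against -0.11, 0.07 and 0.17 (difference -1.78, SE 0.28, adjusted p = 0.00711). For Acot7 it was -1.54, against 0.27, 0.21 and 0.48 (difference -1.85, SE 0.26, adjusted p = 0.00318). Acot7 and Slc5a5 were called in all 24 fits that left out 1 library, Chst10 in 23 and Tnc in 17, while the number of calls ranged between 4 and 44.

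**Figure D5:**
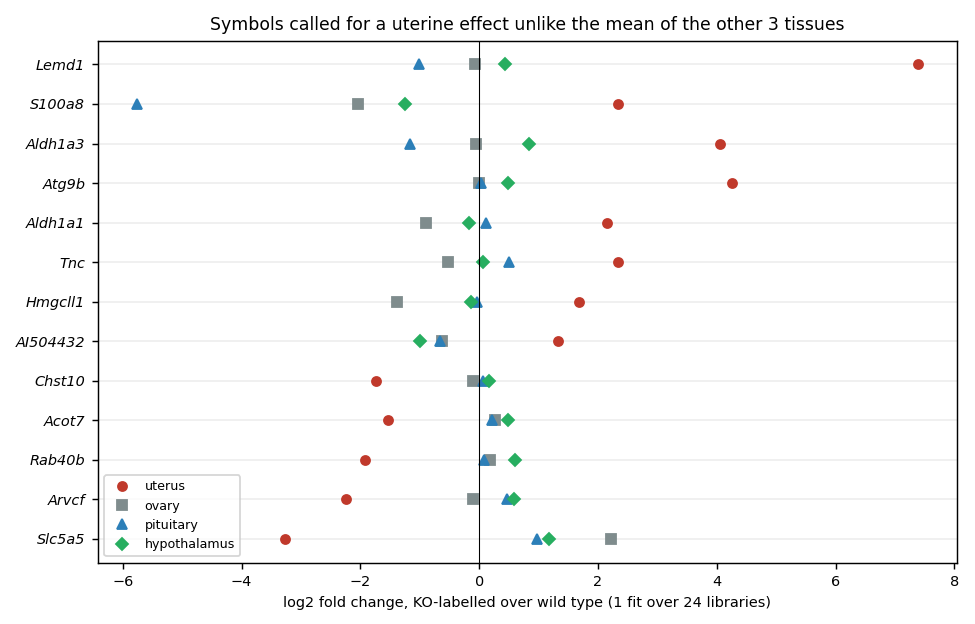
Log2 fold change of KO-labelled over wild type in each of 4 tissues, from 1 fit over 24 libraries, for 13 of the 14 symbols whose uterine effect differed from the mean of the other 3. The uterine circles lie farthest from 0 in every row except that of S100a8, whose pituitary value is -5.76.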

How the data were processed

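Per the submitters' processing notes, reads were handled with FastQC, Trimmomatic, STAR, HTSeq and DESeq2 on mm10. The sources used here give no versions, settings or annotation for these. Raw counts per gene symbol and library were deposited by the authors. They also deposited, per the file headers, a DESeq2 table with normalised signal, log2 fold change and p-value per symbol, from which only values named as theirs are printed. Per the labels' protocols, libraries were unstranded, so reads of overlapping antisense genes cannot be told apart.

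Of 24222 entries 27 carried a date in place of a symbol (0.205% to 0.228% of uterine counts) and were left out. Genotypes were compared with edgeR 4.0.16 in R 4.3.3 (TMM, filterByExpr, robust quasi-likelihood F test, two-sided, Benjamini-Hochberg adjustment over all tested symbols). Fold changes are KO-labelled over wild type, and each SE was set so that it gives the F statistic. CPM values carry the TMM scaling, and no molecular identifiers were used, so counting intervals cover counting error only. Within groups replicate pairs differed beyond sampling noise. Positions come from GENCODE M21 of the same build and promoters from RefSeq GRCm38.p6, with 40 of the 52 called symbols matched.

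The part of the data described here, the 47 gene lists and the alternatives were chosen with earlier results of these data known. Named are Kdm4a, in each direction up to 15 called genes, by size of fold change (mean of at least 1 CPM, groups not overlapping, no predicted symbols), and in each list the 3 members with the smallest p and the most abundant one. Not every gene so taken is printed, 1 called gene is not reported here, other called genes are printed as such, and genes named after their values were seen are marked. Lists are described by counts and medians, and no list was tested. Alternatives were RLE scaling, other filters, DESeq2 1.42.0, limma-voom (limma 3.58.1), a replicate block, 1 fit over 24 libraries, removal of GC and length trends, and leaving out each library.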

Additional observations from a re-analysis of the deposited data

Results flagged for a closer look

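For 14 symbols the effect of the genotype label in the uterus differed from the mean effect in ovary, pituitary and hypothalamus by edgeR's test over 24 libraries. The difference in log2 fold change was -4.72 for Slc5a5, -2.55 for Arvcf, -2.21 for Rab40b, -1.85 for Acot7 and -1.78 for Chst10, whose uterine effects were the lower ones. It was 7.60 for Lemd1, 5.35 for S100a8, 4.18 for Aldh1a3, 4.08 for Atg9b, 2.47 for Aldh1a1, 2.33 for Tnc, 2.21 for Hmgcll1 and 2.09 for AI504432, whose uterine effects were the higher ones, so that 13 of the 14 are given.

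Arvcf, a catenin of cell junctions, measured 15.8, 32.3 and 62 CPM in KO-labelled uteri, against 189.6, 192 and 137 CPM in wild-type uteri, and Atg9b, a membrane protein of autophagy, measured 55, 27.8 and 4.28 CPM in KO-labelled uteri, against 1.19, 1.96 and 1.41 CPM in wild-type uteri. Neither passed in the uterus alone (edgeR adjusted p = 0.0618 and 0.0632), and in both KO-labelled library 3 was the one nearest to wild type. Lemd1 had too few counts in the uterus to be tested there. Hmgcll1 measured 10.6, 3.88 and 3.7 CPM in KO-labelled uteri, against 1.29, 1.6 and 2.82 CPM in wild-type uteri and AI504432 measured 1.6, 2.44 and 1.96 CPM in KO-labelled uteri, against 0.971, 0.464 and 0.962 CPM in wild-type uteri, at uterine adjusted p = 0.19 and 0.216. The S100a8 difference rests in part on its pituitary fold change of -5.76. Of 24 fits that each left out 1 library, all called Slc5a5, Arvcf and Acot7, while AI504432 was called in 4, Hmgcll1 and Lemd1 in 6 and Aldh1a3 in 8.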

How the results depend on the processing

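The number of uterine genes past FDR 0.05, 52 as reported, was 52 with RLE scaling, 49 where 1 CPM was required in 3 libraries, 45 with limma-voom and 46 in 1 fit over 24 libraries, and 52, 49, 40 and 23 of the reported 52 were among them. It was 108 with no filter, 542 with DESeq2 and 101 with GC and length trends removed, and 51, 52 and 49 of the reported 52 were among them. DESeq2 also called 41 of the uncalled genes followed through the alternatives and left 7 uncalled. Leaving out 1 library gave 0 to 171. All 52 kept their direction under every alternative run. The uterine replicate numbers did not pair the samples (same-number correlations -0.149, -0.0981 and -0.0337). With the number as a replicate block 38 genes were called, and 17 with the block and GC and length trends removed, 26 and 14 of them among the 52. The 14 symbols called for a difference from the other tissues became 15 with RLE scaling, 15 with no filter, 12 where 1 CPM was required in 12 libraries, 5 with the replicate block and 4 to 44 when 1 library was left out.

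An alternative chosen after seeing the data counted list members from KO-labelled libraries 2 and 3 alone. Then 33 of 40 S phase and mitosis genes lay above all wild-type libraries, 15 of 27 envelope and keratin genes and 12 of 21 oestrogen-induced genes, beside 13.5% of all symbols, and 20 of 40 progesterone-induced genes lay below, beside 15.3%. With 3 libraries a group, small changes and genes near 1 count could not be resolved.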
